A study of Mus musculus with 9 samples.

Results

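The genes described here are 31 genes named as higher in old haematopoietic stem cells (HSCs), in published ageing work or in earlier results of these same libraries, and leaving out gene families treated apart. They are 31 of the 46626 rows of the expression table that name a gene. Their level in HSCs of old and young saline mice took part in how they were chosen, so that difference is described here and not tested. HSCs are the bone marrow cells from which all blood lineages arise. With age, mouse HSCs become more numerous, give rise to fewer lymphoid and more myeloid and platelet cells, and take on a characteristic set of transcripts that includes surface receptors, adhesion proteins and secreted proteins. Among the 31 are the chaperone clusterin (Clu), the NAD-consuming surface enzyme Cd38, the adhesion protein Alcam and the Hippo pathway coactivator TAZ (Wwtr1).

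The 9 libraries came from HSCs sorted from bone marrow of C57BL/6 mice, in 3 groups of 3. BRL37344 old mice carried subcutaneous osmotic pumps delivering BRL37344, an agonist of the β3-adrenergic receptor, at 2.4 mg per kg per day for 12 weeks, with a pump added after 6 weeks. Saline old and saline young mice carried pumps with saline, so an implanted pump is common to all 3 groups. The labels give 15 to 20 months for old and 2 months for young mice at implantation and state no age at sorting. No group of young mice given BRL37344 was analysed here, and no genetic change is stated for any group. RNA of about 2000 sorted cells went into each library. Whether a library is 1 animal or a pool is not stated, nor whether the replicates of a group are different animals. The p-values below therefore measure how much these 9 libraries vary, which may include technical variation. Groups were read from the sample titles, because a run label ends in the same letters in all 9 libraries.

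All values are RPKM, reads scaled to transcript length and library size, so levels can be set side by side between genes. Log2 changes and levels are of RPKM plus 0.5, which understates the change of genes near 0. Steps between low values implied a depth per library of 12.2 to 44.9, counted in 1000000 reads, which is a 3.68-fold range, and 12575 to 12965 genes reached 1 RPKM in a library. All 14 genes of an HSC marker list, which includes the progenitor markers Cd34, Flt3 and Cd48, were above the limit for testing. Because of these inclusions the sum over the list is not a measure of HSCs alone. The summed level of the 14 genes was 1139 to 1800 RPKM in BRL37344 old, 1221 to 1362 RPKM in saline old and 1420 to 1659 RPKM in saline young libraries. Neutrophil markers, which the sort should leave out, summed to 588.2, 6214 and 2247 RPKM in replicates 1, 2 and 3 of BRL37344 old, to 1096 to 1358 RPKM in saline old, and to 1274, 1976 and 20160 RPKM in saline young replicates 1, 2 and 3. Prtn3 on this list had 404, 435 and 391 RPKM in BRL37344 old, 412 to 448 RPKM in saline old and 187, 226 and 423 RPKM in saline young. It thus made up most of the sum in BRL37344 old replicate 1. Whether its RNA came from neutrophils was not tested. In bulk RNA, fewer cells of a type and less RNA per cell cannot be told apart.

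Promoters are shown for the 3 genes with the largest old minus young change that a RefSeq promoter table (build GRCm38.p6) listed. The genes were chosen on this same contrast, and shared regulation was not tested. Each runs from 250 bases before to 50 bases after a transcript start that the table lists, on the minus strand of chr3:144760928-144761227 for Clca3a1, chr3:57301939-57302238 for Tm4sf1 and chr14:121965144-121965443 for Gpr183. The start used for Tm4sf1 lies inside the span that RefSeq gives the gene, from 57285611 to 57387736, and not at its outer end. Capitals mark a match to the core RUNX motif, read on the other strand.
Clca3a1: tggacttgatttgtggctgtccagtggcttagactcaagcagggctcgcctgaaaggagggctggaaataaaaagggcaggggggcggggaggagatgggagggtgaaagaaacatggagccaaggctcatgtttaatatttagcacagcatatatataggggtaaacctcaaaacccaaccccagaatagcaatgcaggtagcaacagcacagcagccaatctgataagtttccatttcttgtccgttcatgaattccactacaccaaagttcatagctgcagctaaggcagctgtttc
Tm4sf1: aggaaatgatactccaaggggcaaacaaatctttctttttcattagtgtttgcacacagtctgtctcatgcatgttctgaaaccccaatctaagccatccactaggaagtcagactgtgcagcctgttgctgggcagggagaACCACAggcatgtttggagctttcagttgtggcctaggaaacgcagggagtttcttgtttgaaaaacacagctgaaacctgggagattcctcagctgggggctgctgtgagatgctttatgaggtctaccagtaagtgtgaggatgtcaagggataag
Gpr183: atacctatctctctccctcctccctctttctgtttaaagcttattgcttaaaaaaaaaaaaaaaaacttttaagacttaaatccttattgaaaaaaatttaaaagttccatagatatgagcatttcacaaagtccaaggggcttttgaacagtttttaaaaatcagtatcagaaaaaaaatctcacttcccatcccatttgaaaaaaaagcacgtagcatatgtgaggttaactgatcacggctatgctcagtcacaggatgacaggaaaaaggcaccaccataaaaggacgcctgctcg
A search of such windows on both strands used 7 motifs, counted without regard to overlap between them. Of the 31 genes, 24 matched the table, with 30 promoters between them. The core RUNX motif was searched as TGTGGT and was found in 3 of the 30 promoters (of Ampd3, Fhl1 and Tm4sf1), against 16.8% of all 32851 promoters. For GATA factors the search used the letters AGATAA, found in 5 of the 30 promoters (of Ackr1, Ampd3, Cd38, Fhdc1 and Fyb), against 11.2% of all promoters. The letters GGAATG, bound by the TEAD partners of TAZ, were found in 5 of the 30 promoters, which belong to 4 genes (Lpar6, Ptpn14, Sult1a1 and Wwtr1), against 14.7% of all promoters. The AP-1 motif, TGANTCA, was in 3 of the 30, against 7.8% of all promoters. A core TATA box, written TATAAA, was in 2 of the 30, against 13.6%. The STAT motif, TTCNNNGAA, was in 1 of the 30, against 8.3%, and the cAMP response element, TGACGTCA, in 0 of the 30, against 1.8%. Clca3a1 and Gpr183 held none of the 7 in the windows shown. These are matches of letters and not binding sites.

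As a whole, 28 of the 31 genes had a higher mean log2 level in saline old than in saline young HSCs, and Fyb, Fam129a and Ptpn14 had a lower one. The median log2 difference was 1.64 over the 31 genes, against -0.022 over the 13516 genes tested. Mean RPKM was at least 4-fold higher in saline old for 12 of the 30 genes that could be tested and at least 10-fold higher for 8 of them. The saline old and saline young libraries did not overlap for 24 of the 30 tested genes, or 80%, with saline old above, where 9.39% of all genes tested lie apart that way. They did not overlap for 1 gene, Fam129a, with saline old below, where 10.9% of all genes do. In the fit across all genes, 20 of 30 tested genes were past the threshold (limma, adjusted p under 0.05) with saline old higher, where 1.18% of all genes were called higher. Nothing is read from these counts, as the genes were chosen on this contrast. Osmr was not tested, since it reached 1 RPKM in 1 library where 3 were needed, and Sbspon passed through its old libraries alone.

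**Figure D1:**
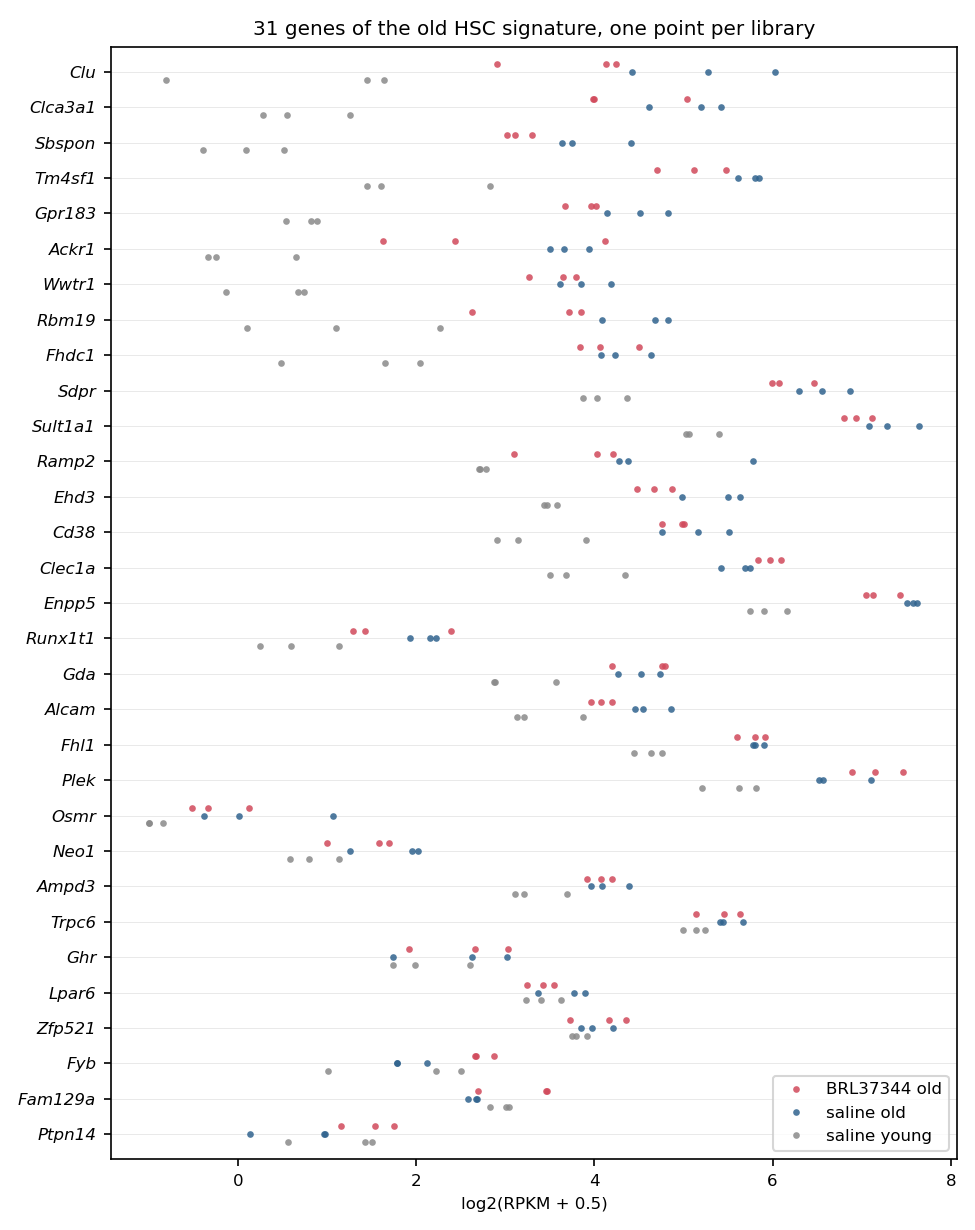
Level of the 31 genes on the log2(RPKM + 0.5) scale, with 1 point for each of 9 libraries, in the order of the saline old minus saline young difference. In the rows from Clu to Osmr every BRL37344 old and saline old point lies to the right of every saline young point, while the groups overlap in most of the lowest 9 rows.

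The surface receptors hold both some of the largest and some of the smallest differences. Gpr183, a receptor for oxysterols that guides immune cell migration, had 12.2, 15.1 and 15.7 RPKM in replicates 1, 2 and 3 of BRL37344 old, 27.9, 22.3 and 17.2 RPKM in saline old and 1.34, 0.948 and 1.26 RPKM in saline young. Its 3 groups did not overlap, with BRL37344 old between saline old and saline young. The saline old mean was 19-fold the saline young mean (log2 difference 3.75 ± 0.23 SE). Ackr1, an atypical receptor that binds chemokines without G protein signalling, had 2.59, 4.90 and 16.9 RPKM in BRL37344 old, 14.9, 12.1 and 10.8 RPKM in saline old and 0.345, 0.291 and 1.07 RPKM in saline young. BRL37344 old replicate 3 was the highest library of all 9 for this gene and replicate 1 the lowest of the old ones. The old minus young log2 difference of Ackr1 was 3.68 ± 0.55 SE.

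Ramp2, which joins the receptor Calcrl to form a receptor for adrenomedullin, had 8.03, 15.8 and 18 RPKM in BRL37344 old, 54.6, 18.9 and 20.4 RPKM in saline old and 6.03, 6.40 and 6.05 RPKM in saline young. Saline old replicate 1 stood far above the other 2 saline old libraries, and BRL37344 old replicate 1 stood close to saline young. Clec1a, a C-type lectin-like receptor, had 56.8, 68.0 and 62.2 RPKM in BRL37344 old, 51.1, 42.2 and 53.0 RPKM in saline old and 19.8, 12.3 and 10.8 RPKM in saline young. It was 1 of 4 genes with every BRL37344 old library above every saline old one. Osmr, the receptor chain through which oncostatin M signals in the mouse together with Il6st, was low throughout, at 0.290, 0.198 and 0.590 RPKM in BRL37344 old, 1.59, 0.506 and 0.264 RPKM in saline old and 0.0568, 0.0009 and 0.0009 RPKM in saline young, where 0.0009 RPKM is the floor of its row. Old libraries lay above young ones, at levels where a few reads decide a value.

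The other 4 receptors and channels differed by less than 1 on the log2 scale between saline old and saline young. Neo1, the netrin and repulsive guidance receptor neogenin, averaged 2.24 ± 0.659 RPKM in BRL37344 old, 2.94 ± 0.906 RPKM in saline old and 1.31 ± 0.349 RPKM in saline young (SD, n = 3 each). Trpc6, a cation channel opened by diacylglycerol, averaged 42.4 ± 7.15 RPKM in BRL37344 old, 45.2 ± 4.57 RPKM in saline old and 34.5 ± 2.98 RPKM in saline young. Ghr, the growth hormone receptor, averaged 5.59 ± 2.20 RPKM in BRL37344 old, 5.38 ± 2.39 RPKM in saline old and 3.96 ± 1.43 RPKM in saline young, with overlapping groups. For Lpar6, a receptor for lysophosphatidic acid, the means were 10.1 ± 1.1 RPKM in BRL37344 old, 12.4 ± 2.35 RPKM in saline old and 10.2 ± 1.47 RPKM in saline young. The libraries of saline old and saline young overlapped for Ghr and Lpar6 and lay apart for Neo1 and Trpc6.

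All 5 surface enzymes, adhesion and membrane proteins differed by more than 1 on the log2 scale between saline old and saline young. Clca3a1, of the family of chloride channel accessory proteins, had 15.4, 15.3 and 32.4 RPKM in BRL37344 old, 36.1, 42.2 and 23.9 RPKM in saline old and 0.715, 0.965 and 1.88 RPKM in saline young. BRL37344 old replicates 1 and 2 lay below all saline old libraries and replicate 3 among them. Tm4sf1, a tetraspanin-like membrane protein, had 34.3, 25.5 and 44.0 RPKM in BRL37344 old, 55.2, 57.3 and 48.4 RPKM in saline old and 6.61, 2.23 and 2.55 RPKM in saline young. Its 3 groups did not overlap. The saline old mean was 28.7-fold the saline young mean for Clca3a1 and 14.1-fold for Tm4sf1.

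Enpp5, a membrane protein of the nucleotide pyrophosphatase and phosphodiesterase family, was the most abundant of the 31 in saline old, with 139, 132 and 172 RPKM in BRL37344 old, 191, 197 and 182 RPKM in saline old and 70.9, 53.4 and 59.2 RPKM in saline young. Again the groups did not overlap. Alcam, an adhesion protein of the immunoglobulin family that binds CD6, had 15.1, 16.3 and 17.8 RPKM in BRL37344 old, 28.5, 22.9 and 21.4 RPKM in saline old and 14.2, 8.72 and 8.23 RPKM in saline young. BRL37344 old replicate 1 stood just above saline young replicate 1. Cd38 averaged 29.8 ± 2.82 RPKM in BRL37344 old, 35.6 ± 9.17 RPKM in saline old and 9.93 ± 4.0 RPKM in saline young, and the old groups overlapped each other.

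Both secreted proteins were among the 3 largest differences. Clu, a chaperone found in plasma and platelets, had 17, 6.98 and 18.4 RPKM in BRL37344 old, 64.8, 38.1 and 21 RPKM in saline old and 0.0686, 2.62 and 2.23 RPKM in saline young. Saline old replicate 1 held 64.8 RPKM and replicate 3 of the same group 21 RPKM, so the spread within saline old was wide, and all BRL37344 old libraries still lay below it. Sbspon, a matrix protein with somatomedin B and thrombospondin domains, had 7.6, 8.12 and 9.38 RPKM in BRL37344 old, 20.8, 13.0 and 12.0 RPKM in saline old and 0.933, 0.564 and 0.262 RPKM in saline young. Its BRL37344 old libraries were close to each other and below saline old. The log2 difference of saline old from saline young was 4.48 ± 0.66 SE for Clu and 3.86 ± 0.30 SE for Sbspon.

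Of 7 genes of membrane trafficking and the cytoskeleton, 5 differed by more than 1 on the log2 scale between saline old and saline young. Fhdc1, a formin that acts on actin and microtubules, had 16.2, 13.8 and 22.1 RPKM in BRL37344 old, 24.3, 18.2 and 16.4 RPKM in saline old and 3.61, 2.63 and 0.896 RPKM in saline young. Sdpr, the caveola protein cavin-2, had 63.3, 66.9 and 88.1 RPKM in BRL37344 old, 117, 93.7 and 78.3 RPKM in saline old and 20.1, 14.2 and 15.9 RPKM in saline young. In both genes the old groups overlapped each other and lay above saline young. Ehd3, an ATPase of endocytic recycling, had 21.7, 24.9 and 28.9 RPKM in BRL37344 old, 49.3, 44.6 and 31.1 RPKM in saline old and 10.3, 10.6 and 11.5 RPKM in saline young. Its 3 groups did not overlap.

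Plek, pleckstrin, a major substrate of protein kinase C in platelets, had 142, 177 and 118 RPKM in BRL37344 old, 138, 94.5 and 91.0 RPKM in saline old and 55.7, 48.6 and 36.5 RPKM in saline young. The old groups overlapped through saline old replicate 1. Fhl1, a protein of LIM domains, averaged 54.4 ± 5.99 RPKM in BRL37344 old, 56.4 ± 2.68 RPKM in saline old and 24.1 ± 2.59 RPKM in saline young. Fyb, the adaptor ADAP that links antigen receptors to integrins, had 6.81, 5.89 and 5.80 RPKM in BRL37344 old, 3.86, 2.93 and 2.94 RPKM in saline old and 5.15, 4.17 and 1.51 RPKM in saline young. Every BRL37344 old library exceeded all other libraries for Fyb, and saline old and saline young overlapped. Fam129a, the stress-responsive protein Niban, had 10.5, 10.6 and 5.98 RPKM in BRL37344 old, 5.47, 5.88 and 5.90 RPKM in saline old and 7.70, 6.59 and 7.57 RPKM in saline young. Here BRL37344 old replicate 3 stood at the saline old level while replicates 1 and 2 stood above every other library.

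Among the phosphatase and the transcriptional regulators, Wwtr1, which encodes the Hippo pathway coactivator TAZ, had 13.3, 12.1 and 9.12 RPKM in BRL37344 old, 17.8, 13.9 and 11.7 RPKM in saline old and 1.17, 0.409 and 1.1 RPKM in saline young. The old groups overlapped each other, and the saline old mean was 16.2-fold the saline young mean. Ptpn14, a tyrosine phosphatase that binds the related coactivator YAP, had 2.41, 2.86 and 1.73 RPKM in BRL37344 old, 1.46, 0.596 and 1.47 RPKM in saline old and 0.971, 2.18 and 2.32 RPKM in saline young. Saline old lay below all BRL37344 old libraries and overlapped saline young. Runx1t1, the corepressor ETO, averaged 2.96 ± 1.56 RPKM in BRL37344 old, 3.80 ± 0.455 RPKM in saline old and 1.13 ± 0.511 RPKM in saline young. Zfp521, a zinc finger regulator of stem cells and lymphoid fate, averaged 16.7 ± 3.71 RPKM in BRL37344 old, 15.7 ± 2.04 RPKM in saline old and 13.6 ± 0.870 RPKM in saline young, and its groups overlapped.

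The genes of metabolism and RNA handling included Rbm19, which encodes a nucleolar protein of ribosome assembly. Rbm19 had 12.6, 5.67 and 13.9 RPKM in BRL37344 old, 27.9, 25.1 and 16.5 RPKM in saline old and 1.64, 0.569 and 4.31 RPKM in saline young. Its groups did not overlap, and the saline young libraries themselves spread widely. Sult1a1, a sulfotransferase that conjugates phenols, had 138, 122 and 111 RPKM in BRL37344 old, 199, 135 and 156 RPKM in saline old and 41.8, 32.1 and 32.8 RPKM in saline young. Gda, guanine deaminase, had 27.3, 26.6 and 17.8 RPKM in BRL37344 old, 26.1, 18.8 and 22.4 RPKM in saline old and 6.84, 6.91 and 11.4 RPKM in saline young. In both of these the old groups overlapped and lay above saline young. Ampd3, an AMP deaminase of the same purine pathway as Gda, averaged 16.2 ± 1.61 RPKM in BRL37344 old, 17.3 ± 2.78 RPKM in saline old and 9.77 ± 2.29 RPKM in saline young.

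Where BRL37344 old stood between saline young and saline old was expressed as a position, with 0 at the saline young mean and 1 at the saline old mean of the log2 level. It was computed for the 22 genes with a log2 difference of at least 1 between saline old and saline young. The genes just inside this limit were Plek and Osmr (both 1.18) and those just outside Neo1 (0.91) and Ampd3 (0.80). The median position was 0.824, and the positions ran from 0.499 for Ramp2 to 1.37 for Plek. Of the 22, 19 lay between 0 and 1, of which 11 were at 0.75 or above, 7 between 0.5 and 0.75 and 1, Ramp2, under 0.5. Next to Ramp2 were Alcam at 0.554, Osmr at 0.597, Ehd3 at 0.627, Rbm19 at 0.664 and Clu at 0.669. Above 1 were Gda at 1.06, Clec1a at 1.20 and Plek at 1.37. The log2 scale places a gene that lies between the saline groups nearer to saline old than RPKM itself would. Clu, at 0.669, had a BRL37344 old mean RPKM 0.342 times that of saline old. These positions share the saline libraries with the choice of the genes and carry no test.

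Positions also differed between libraries of the same group. Their median over the 22 genes was 0.764, 0.788 and 0.892 in replicates 1, 2 and 3 of BRL37344 old, and 1.11, 0.989 and 0.90 in saline old replicates 1, 2 and 3. BRL37344 old replicate 3 was thus just below saline old replicate 3, and it was the highest BRL37344 old library for 15 of the 22 genes. Saline old replicate 1 was the highest saline old library for 18 of the 22. The most divided genes were Ackr1, with positions of 0.436, 0.655 and 1.11 in BRL37344 old replicates 1, 2 and 3, Runx1t1, with 0.439, 1.20 and 0.536, and Ramp2, with 0.171, 0.620 and 0.707. Sbspon, with 0.762, 0.786 and 0.836, and Gpr183, with 0.780, 0.858 and 0.873, were among the closest. All 22 genes lay above every saline young library in each of the 3 BRL37344 old libraries.

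**Figure D2:**
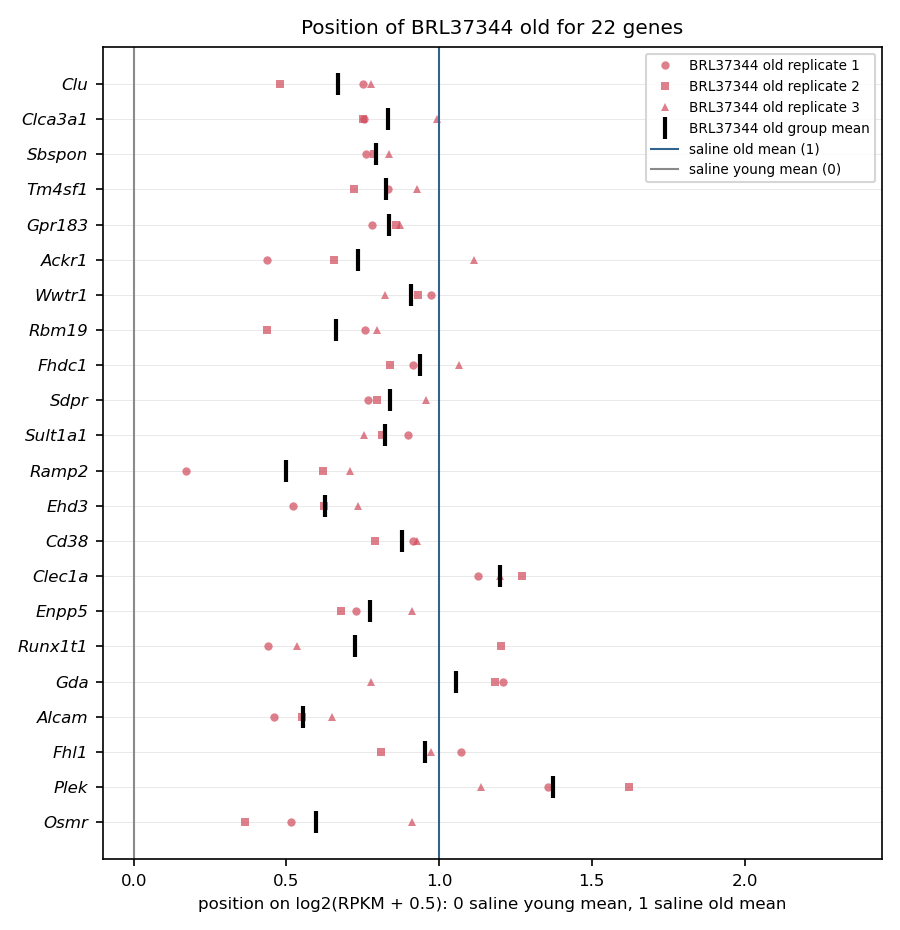
Position of each BRL37344 old library (symbols) and of the group mean (black tick) for 22 genes, on a scale with the saline young mean at 0 and the saline old mean at 1. Most ticks lie between 0.5 and 1, with Gda, Clec1a and Plek above 1 and Ramp2 at 0.499.

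Against saline old, most of the 31 genes were lower in BRL37344 old by amounts that did not pass the test across all genes. Of the 31, 23 had a negative and 8 a positive difference, and the median log2 difference was -0.32, against 0.006 over all genes tested. The saline old libraries also took part in choosing the genes, and that choice alone favours lower values in BRL37344 old. No gene of the 31 was called (limma, lowest adjusted p 0.839), as 0% of all 13516 genes were. At an unadjusted p under 0.05 there were 10 of 30 tested genes, or 33.3%, where 5.64% of all genes were. Of the 10, 8 were lower, namely Ehd3, Enpp5, Gpr183, Sbspon, Ramp2, Alcam, Sult1a1 and Clu, and Fyb and Fam129a were higher.

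Among the lower ones, Ehd3 had the smallest p, with a mean 0.604 times that of saline old (log2 difference -0.70 ± 0.19 SE, limma unadjusted p = 0.00368, adjusted p = 0.839). Clu had the largest difference, with a mean 0.342 times that of saline old (-1.48 ± 0.66 SE, limma unadjusted p = 0.0498). Ramp2 had a mean 0.445 times that of saline old (-1.04 ± 0.40 SE), and the difference was -0.56 without saline old replicate 1. The log2 differences of the other 5 were -0.79 ± 0.30 for Sbspon, -0.61 ± 0.23 for Gpr183, -0.54 ± 0.22 for Alcam, -0.39 ± 0.16 for Sult1a1 and -0.37 ± 0.13 for Enpp5. Fyb differed by 0.84 ± 0.36 and Fam129a by 0.56 ± 0.24, both higher in BRL37344 old (limma unadjusted p = 0.041 for Fyb and 0.0373 for Fam129a). Rbm19 (-1.13 ± 0.51 SE) and Ackr1 (-0.97 ± 0.55 SE) had larger differences than most of these, with a wider spread between libraries.

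Counted by libraries, 9 of 30 tested genes, or 30%, had all BRL37344 old libraries below all saline old ones, where 5.28% of all genes do. They were Clu, Sbspon, Tm4sf1, Gpr183, Rbm19, Ramp2, Ehd3, Enpp5 and Alcam. All BRL37344 old libraries were above all saline old ones for 4, or 13.3%, where 4.82% of all genes are. These were Clec1a, Fyb, Fam129a and Ptpn14. Of these 4, Fyb, Fam129a and Ptpn14 are also the 3 genes that were not higher in saline old than in saline young, and both differences use the same saline old libraries. The median log2 difference between BRL37344 old and saline old was -0.44 in the 22 genes with a position, of which 19 were negative, and 0.07 in the other 9 genes. The split into 22 and 9 genes used the same saline old libraries, which alone favours lower values in the 22. Nothing is read from this contrast.

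Single libraries carried part of the difference between BRL37344 old and saline old. The mean log2 level of the 31 genes was 3.94, 3.995 and 4.17 in replicates 1, 2 and 3 of BRL37344 old, 4.61, 4.25 and 4.13 in saline old and 2.55, 2.41 and 2.49 in saline young. BRL37344 old replicate 3 was therefore above saline old replicate 3, and saline old replicate 1 was the highest saline old library in 24 of the 31 genes. Without saline old replicate 1 the median difference between BRL37344 old and saline old was -0.16. Without the 2 libraries highest in neutrophil markers, BRL37344 old replicate 2 and saline young replicate 3, it was -0.34, and the median position was 0.821.

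**Figure D3:**
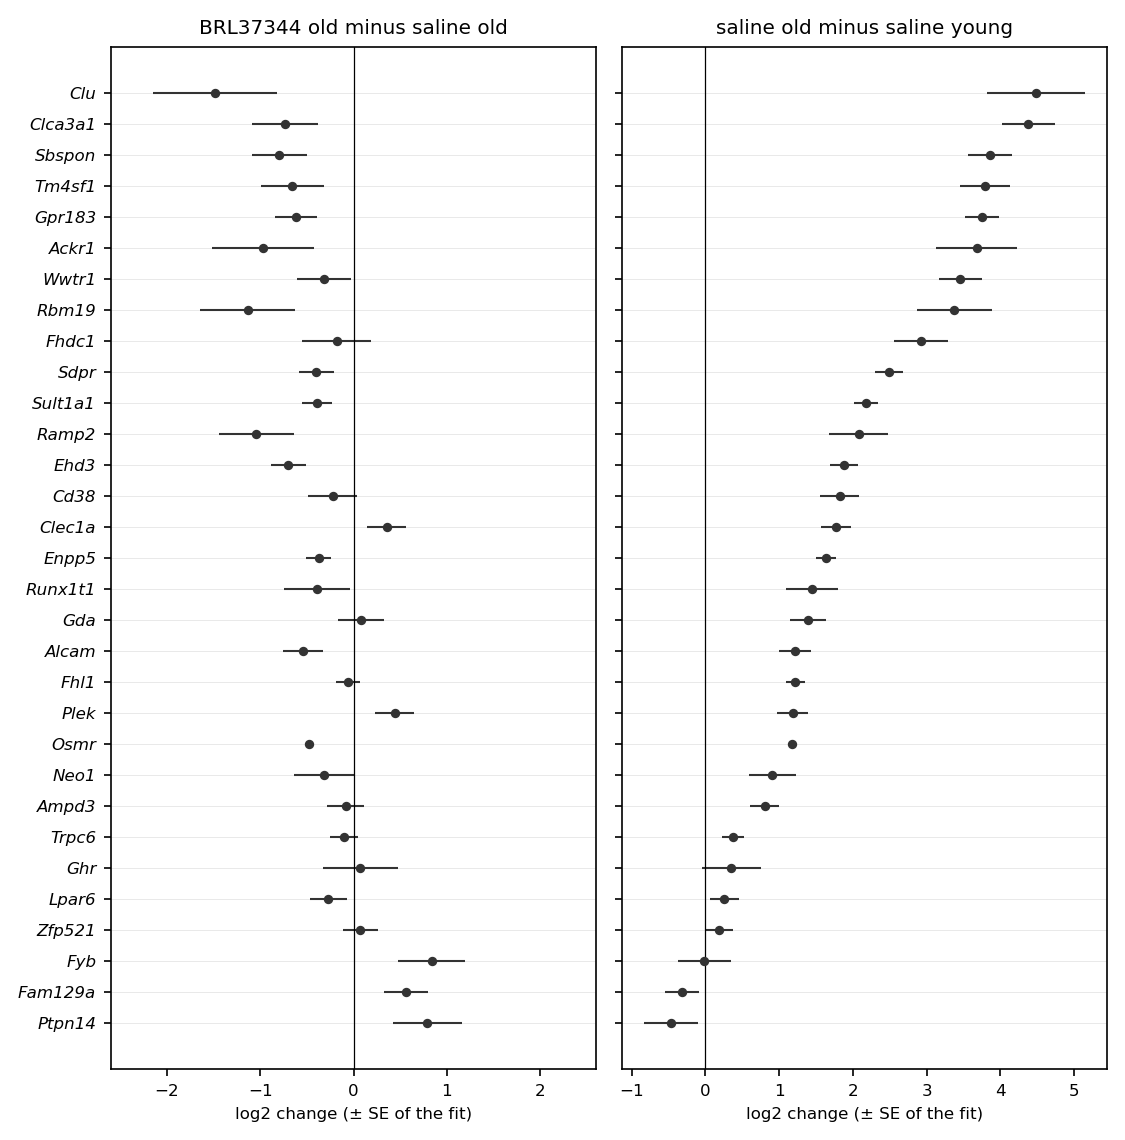
Log2 difference with its standard error (bars, from the fit over 9 libraries) for each of the 31 genes, BRL37344 old minus saline old on the left and saline old minus saline young on the right, on separate scales. Osmr, not tested, has no bar. On the left most points lie below 0, from -1.48 for Clu, and the 3 lowest rows lie above it.

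Set against saline young, BRL37344 old was higher for 30 of the 31 genes, with a median log2 difference of 1.27, against -0.037 over all genes tested. This comparison shares the saline young libraries with the one the genes were chosen on. The fit across all genes called 15 of 30 tested genes higher, or 50%, where 0.695% of all genes were called higher (limma, adjusted p under 0.05). BRL37344 old lay apart from and above saline young for 23 of the 30, where 7.29% of all genes do. All 15 were among the 20 past the threshold in saline old. The largest of them were Clca3a1, with 17.7 times the saline young mean, Sbspon, with 14.3 times, Wwtr1, with 12.9 times, and Gpr183, with 12.1 times. Clu, Ackr1, Rbm19, Ramp2 and Alcam were past the threshold in saline old and not in BRL37344 old, with limma adjusted p-values of 0.102, 0.0651, 0.111, 0.423 and 0.298 against saline young. The test of that difference is the one between BRL37344 old and saline old, which none of the 5 passed. Lpar6 was the gene with no positive difference (-0.01 ± 0.20 SE).

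The genes that work with the 31 were followed through 23 lists of receptor partners, ligands, paralogs and pathway members, 205 genes in all. Of these, 120 were tested and 4 were called, all higher in saline old than in saline young: Amotl2, Skap1, Bmpr1a and Plek2. Among all genes tested, 1.18% were called higher. Skap1, Bmpr1a and Plek2 reached 1 RPKM in no saline young library, so they entered the test through old libraries alone, and nothing is read from the share called. With no filter on low values the 3 were called as well (limma adjusted p of 0.0115 for Skap1, 0.018 for Bmpr1a and 0.0304 for Plek2). The median log2 difference over the 120 genes was -0.05. None was called between BRL37344 old and saline old, and Amotl2, Skap1 and Bmpr1a were called higher in BRL37344 old than in saline young. Most of the partner genes tested had no call.

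In the Hippo pathway, 1 of 12 tested genes was called. Amotl2, a scaffold of the angiomotin family that binds YAP and TAZ, had 7.06, 7.91 and 11.1 RPKM in BRL37344 old, 11.4, 9.73 and 9.36 RPKM in saline old and 2.28, 1.40 and 1.98 RPKM in saline young. The saline old mean was 5.40-fold the saline young mean (log2 difference 2.18 ± 0.24 SE, limma adjusted p = 0.00153). Yap1, which encodes the relative of TAZ, did not exceed 0.22 RPKM in any library, below every old value of Wwtr1. Of the DNA-binding partners of TAZ, Tead1 and Tead4 were listed at the floor in all 9 libraries. Tead2 had 11.3, 8.89 and 3.05 RPKM in BRL37344 old, 6.95, 6.76 and 9.55 RPKM in saline old and 5.63, 8.64 and 11.4 RPKM in saline young, with overlapping groups. Tead3 had 1.67, 1.48 and 0.850 RPKM in BRL37344 old, 0.421, 0.602 and 0.471 RPKM in saline old and 1.70, 1.82 and 2.17 RPKM in saline young, and did not pass (limma adjusted p = 0.0842 for saline old against saline young). Ankrd1, a target gene of the pathway in other cell types, was listed at the floor in all libraries. The targets Ctgf and Cyr61 were above the floor in 1 library (0.838 RPKM, BRL37344 old replicate 2) and in 2 libraries (at most 0.172 RPKM).

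For the integrin adaptors around Fyb and Plek, 2 of 15 tested genes were called, both of which passed the filter on low values through their old libraries alone. Skap1, the adaptor bound by ADAP in T cells, had 2.47, 2.79 and 4.26 RPKM in BRL37344 old, 2.96, 4.19 and 3.06 RPKM in saline old and 0.445, 0.176 and 0.372 RPKM in saline young (saline old minus saline young 2.23 ± 0.30 SE, limma adjusted p = 0.005). Fyb itself did not differ that way, and the paralog Skap2 was far more abundant, at 214 to 248 RPKM in BRL37344 old, 230.2 to 234 RPKM in saline old and 189 to 219 RPKM in saline young. Plek2, the paralog of Plek, had 1.26, 0.752 and 1.06 RPKM in BRL37344 old, 2.22, 2.42 and 2.00 RPKM in saline old and 0.0594, 0.240 and 0.515 RPKM in saline young (1.85 ± 0.34 SE, limma adjusted p = 0.0227). BRL37344 old was between the other groups for Plek2 and did not overlap either. The call of Plek2 was lost when any of 4 libraries was left out, saline old replicates 2 or 3 or saline young replicates 1 or 2, with adjusted p up to 0.114.

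**Figure D4:**
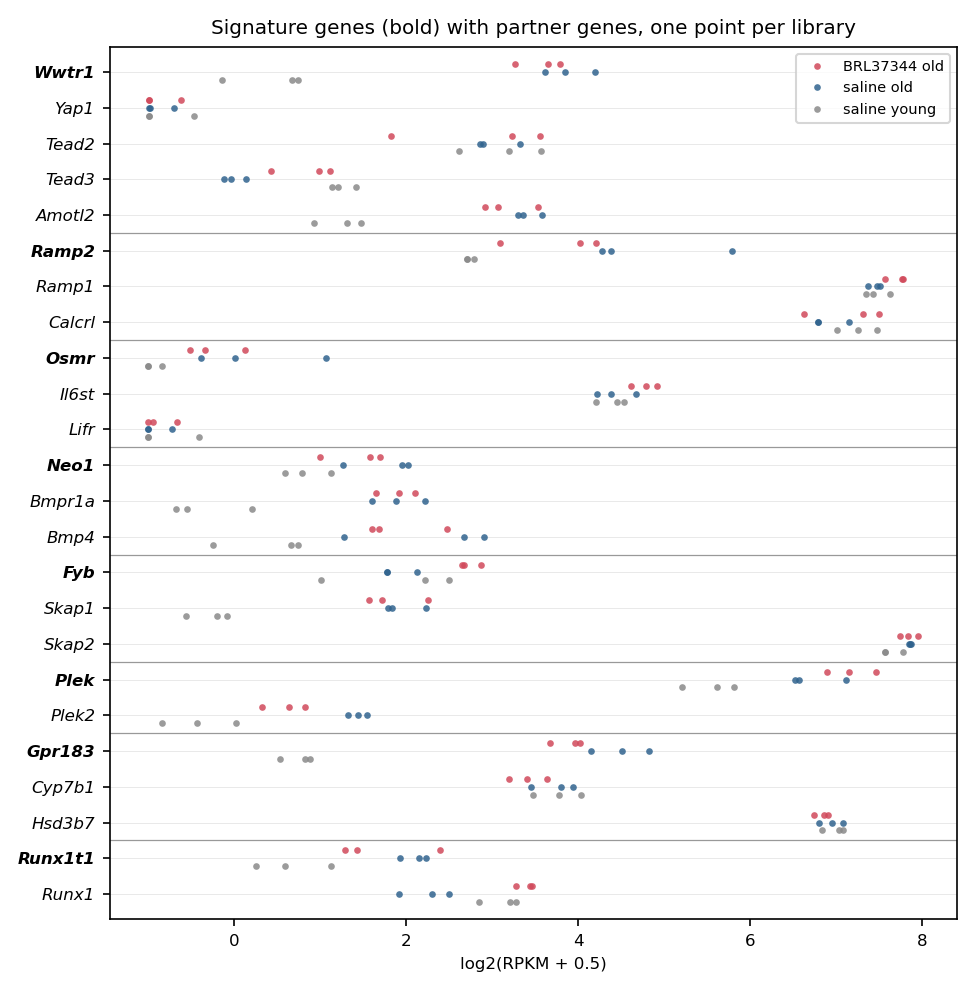
Level of 8 of the 31 genes (bold) and of partner genes on the log2(RPKM + 0.5) scale, with 1 point per library and lines between pathways. Amotl2, Skap1, Bmpr1a and Plek2 lie higher in all old than in all young libraries, while Yap1 and Lifr stay near the left edge and Runx1 is lower in saline old than in the other groups.

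Around neogenin, Bmpr1a was called among 5 tested genes. Bmpr1a encodes a receptor for bone morphogenetic proteins, for which neogenin and its ligands act as modulators. It had 2.63, 3.80 and 3.28 RPKM in BRL37344 old, 4.16, 2.54 and 3.19 RPKM in saline old and 0.655, 0.126 and 0.182 RPKM in saline young. All 6 libraries that took it past the filter on low values were thus old ones. The log2 difference of saline old from saline young was 2.24 ± 0.33 SE (limma adjusted p = 0.00847; 0.0689 without the 2 libraries highest in neutrophil markers). Its ligand gene Bmp4 had 2.54, 5.07 and 2.71 RPKM in BRL37344 old, 6.96, 1.92 and 5.86 RPKM in saline old and 1.17, 1.08 and 0.342 RPKM in saline young, and did not pass (limma adjusted p = 0.0875).

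Several receptors among the 31 sat beside abundant partners that did not pass. Calcrl, the receptor that Ramp2 joins, had 98.6 to 180 RPKM in BRL37344 old, 110.1 to 141 RPKM in saline old and 128 to 178 RPKM in saline young. Ramp1, which turns Calcrl into a receptor for calcitonin gene-related peptide, had 189.6 to 218 RPKM in BRL37344 old, 165 to 182 RPKM in saline old and 163 to 197 RPKM in saline young, well above Ramp2 in every library. Il6st, the signalling partner of Osmr, had 24.0 to 29.6 RPKM in BRL37344 old, 18.2 to 25.0 RPKM in saline old and 18 to 22.6 RPKM in saline young, and Lifr, the other receptor chain for this cytokine family, did not exceed 0.252 RPKM. Hsd3b7 encodes an enzyme that breaks down the oxysterol ligand of Gpr183. It had 107 to 119 RPKM in BRL37344 old, 111 to 134 RPKM in saline old and 113 to 135 RPKM in saline young. Ch25h, which starts the synthesis of this ligand, was above the floor in 1 library, at 0.284 RPKM in BRL37344 old replicate 2.

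The gene with the smallest p for saline old against saline young in each of the other lists with 5 or more tested genes did not pass either. Runx1, the blood transcription factor whose fusion to ETO occurs in human leukaemia, had 10.6, 10.4 and 9.20 RPKM in BRL37344 old, 5.15, 4.41 and 3.27 RPKM in saline old and 8.74, 9.16 and 6.72 RPKM in saline young. Saline old lay below both other groups without overlap. Its log2 difference was 1.16 ± 0.22 SE between BRL37344 old and saline old (limma unadjusted p = 0.000326, adjusted p = 0.839) and -0.87 ± 0.22 SE between saline old and saline young (adjusted p = 0.0902). Igf1, the growth factor that growth hormone induces in liver, had 3.13, 4.92 and 2.22 RPKM in BRL37344 old, 3.5, 3.01 and 2.43 RPKM in saline old and 7.92, 6.97 and 7.44 RPKM in saline young (saline old minus saline young, limma adjusted p = 0.0729). Rab11a, a GTPase of endocytic recycling, was at a log2 difference of 0.54 ± 0.12 SE between saline old and saline young (limma adjusted p = 0.0616). The others were Il6ra at -0.78, Cav2 at -0.44, Nmnat3 at 0.35 and Nt5c at 0.26, with limma adjusted p-values of 0.294, 0.407, 0.274 and 0.52.

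For Tm4sf1, Clca3a1, Trpc6 and Ackr1 the listed paralogs were low, which says nothing of paralogs of the other genes. The paralogs of Tm4sf1 in the lists did not exceed 0.245 RPKM in any library, those of Clca3a1 0.0501 RPKM, those of Trpc6 0.975 RPKM and the atypical chemokine receptors Ackr2, Ackr3 and Ackr4 0.533 RPKM. How reads shared between such copies were assigned is not given in the sources used here.

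Position in the genome was also compared. Tm4sf1 and Wwtr1 lie on chromosome 3 with 67.9 kb between their RefSeq spans (GRCm38.p6), and Osmr and Fyb on chromosome 15 with 148.0 kb between them. The first pair was high in old libraries, with log2 differences of 3.79 and 3.46 between saline old and saline young, and the second differed by 1.18 for Osmr and -0.01 for Fyb. Other genes within 200 kb of the 31 numbered 224, of which 106 were tested, around 26 of the 31. Their median log2 difference between saline old and saline young was 0.04, and 2, or 1.89%, were called higher, where 1.18% of all genes were. These were Nupr1, a stress-response regulator 47.4 kb from Sult1a1, with a log2 difference of 3.10 ± 0.20 SE (limma adjusted p = 9.05e-05), and Cysltr2, a leukotriene receptor 188.8 kb from Lpar6, with 1.77 ± 0.14 SE (limma adjusted p = 0.000155). Beside Clec1a, Clec9a, 1.9 kb away, differed by 1.14 ± 0.29 SE and Clec1b, 21.3 kb away, by 1.07 ± 0.35 SE, and neither passed (limma adjusted p = 0.096 and 0.187).

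Several of the 31, such as Tm4sf1, Ackr1, Ramp2, Clec1a and Sdpr, are also known from endothelial cells, and Clu and Plek from platelets. Of 18 endothelial markers, 11 were tested and none was called; their summed level was 412 to 448 RPKM in BRL37344 old, 418 to 449 RPKM in saline old and 398 to 449 RPKM in saline young. Kdr and Sox17 were under 0.1 RPKM in all 9 libraries. Cdh5, Flt4, Lyve1 and Ptprb did not exceed 0.258, 0.447, 0.161 and 0.150 RPKM. Other markers on the list were abundant in every group, and bulk RNA does not tell which cells they came from. Egfl7 had 154 to 202 RPKM in BRL37344 old, 156 to 173 RPKM in saline old and 168 to 171 RPKM in saline young. Eng had 72.8 to 93.9 RPKM in BRL37344 old, 79.5 to 101 RPKM in saline old and 70.2 to 87.1 RPKM in saline young. Plvap reached 2.03 RPKM in BRL37344 old replicate 3 and 1.94 RPKM in saline old replicate 1, and was at most 0.335 RPKM in the other 7 libraries. The part of any endothelial cells in the levels of the 31 genes was not tested. Of 9 megakaryocyte and platelet markers, 8 were tested and none was called, 6 being positive between saline old and saline young. Between BRL37344 old and saline old 1 of the 8, Ppbp, was positive and 7 were negative, among them Itga2b with a log2 difference of -0.59 and Gp1ba with -0.54. The 9 markers summed to 457 to 808 RPKM in BRL37344 old, 455 to 745 RPKM in saline old and 376 to 525 RPKM in saline young, and their part in the levels of Clu and Plek was not tested. Marrow stroma markers summed to 13.4 to 32.1 RPKM in BRL37344 old, 12.0 to 27.9 RPKM in saline old and 9.29 to 15.6 RPKM in saline young. Cd48, a surface protein low on the most primitive HSCs, was included in the HSC marker list. It had 10.2, 7.54 and 8.72 RPKM in BRL37344 old, 2.80, 2.27 and 6.2 RPKM in saline old and 12.8, 22.8 and 22.7 RPKM in saline young. Cd48 was called lower in saline old than in saline young (limma adjusted p = 0.00957). The composition of the sorted cells was not tested.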

How the data were processed

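SMART-Seq v4 and Nextera XT kits were used for the libraries, per the labels' protocols. Tools named in the submitters' processing notes are Trim Galore, STAR 2.5.3a and Partek, with mm10 as build; their roles are not given in the sources used here. The deposited table was found to hold RPKM (FPKM is possible too) from its values, which have a floor of 0.0001 per transcript. Column sums were 570571 to 604579. Of 46628 rows, 2 name no gene; 18 columns of another sheet were not used. Depth was read from the value steps of 5577 genes, with 86.9% to 89.6% of low values within 0.05 of a whole read; no counts were rebuilt.

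The 31 genes, the partner and marker lists and the tests were chosen with earlier results of these data known. Log2(RPKM + 0.5) was fitted with limma 3.58.1 (R 4.3.3; trend and robust, 9 libraries, 6 residual degrees of freedom) for 13516 genes with at least 1 RPKM in 3 libraries, with Benjamini-Hochberg adjustment over all of them and a threshold of 0.05. The fit was tested on simulated data. All 31 genes are named. Values per library are given for the 12 largest and 3 smallest old minus young differences, for genes near the 1 RPKM limit, and for those with an unadjusted p under 0.05 between the old groups or a position above 1 or under 0.25. Called partner genes are named, and the gene of smallest p in each list with 5 or more tested; further partners were named after their values were seen. Alternatives were other pseudocounts, filters, scalings, weights, groups fitted, a replicate block and libraries left out.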

Additional observations from a re-analysis of the deposited data

How the results depend on the processing

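No gene of the 31 was called between BRL37344 old and saline old under any alternative run, and 24 of the 30 tested kept the sign of that difference in all of them. The others had differences near 0 that turned: without the 2 libraries highest in neutrophil markers Gda was at -0.011, Fhl1 at 0.028 and Zfp521 at -0.064, and with single libraries left out the lowest and highest values were -0.042 and 0.273 for Gda, -0.13 and 0.028 for Fhl1, -0.173 and 0.041 for Ampd3, -0.21 and 0.034 for Trpc6, -0.287 and 0.381 for Ghr and -0.064 and 0.254 for Zfp521. Over the alternatives the median position was 0.780 to 0.862, and 12 to 16 of the 31 were called between BRL37344 old and saline young.

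Counts over all genes moved more. Between saline old and saline young, 213 genes were called, 140 with no filter, 1284 with sample quality weights (516 higher and 768 lower, against 159 and 54), 83 without the 2 neutrophil-high libraries, and 96 to 591 with single libraries left out. Between BRL37344 old and saline old, 0 were called, with 762 at an unadjusted p under 0.05, 1 with a pseudocount of 0.1, 3 with weights, 2 with the 2 groups alone, and 0 to 38 with libraries left out (38 without BRL37344 old replicate 3). Between BRL37344 old and saline young, 104 were called, 169 with weights, 39 without the neutrophil-high libraries, and 57 to 162 with libraries left out. The causes were not tested.

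Deviations of same-numbered libraries had correlations of -0.052 to 0.19, and those of differently numbered ones -0.156 to 0.132. The highest was between BRL37344 old replicate 1 and saline young replicate 1. Whether libraries of the same number share a batch cannot be told from these values, and the numbers are used here as names. With the replicate number as a block, 174, 0 and 92 genes were called in the 3 comparisons, with 0 and 13 of the 31 in those with BRL37344 old, and Plek2 was lost (adjusted p = 0.0601); it was also lost with the 2 groups alone (0.0543). In the shallower libraries a value near or below 1 RPKM rests on fewer reads. This bears most on Osmr and on the saline young values of the genes that are low there. Neo1 and Runx1t1 were low too, and the part of read numbers in their spread was not tested.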
